A study of Mus musculus with 7 samples.

Results

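The proteins with a basic helix-loop-helix and a PAS domain (bHLH-PAS) that sense oxygen, xenobiotics and the time of day, together with their partners ARNT and ARNT2, were followed in mouse LSK cells, the lineage-negative Sca1+ cKit+ bone marrow (BM) cells among which are hematopoietic stem cells (HSCs) and early progenitors. The genes are Arnt2, Arnt, Ahr, Ahrr, Hif1a, Epas1, Hif3a, Clock, Npas2 and Sim1, which are 10 of the 48440 rows of the expression table, and each was found by its symbol. The family was chosen by the difference of Arnt2 between wild-type and PROSER1 KO libraries, so that every value of Arnt2, its call in the fit over all genes included, is a description from which nothing is read, and p-values are given only for the other members.

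RNA was sequenced from LSK cells of C57BL/6 recipients that had been irradiated (9.5 Gy) and had received BM of wild-type mice (n = 4) or of mice with a germ line PROSER1 KO made with an endonuclease (n = 3), and both groups were taken at day 77. PROSER1 is a protein that binds the TET DNA demethylases, and the comparison asks how its loss alters gene expression in stem and progenitor cells before the blood phenotype appears. The methods call the libraries biological replicates without stating the number of animals behind each, the labels give neither the age nor the sex of the animals, and no donor marker is named for this sort, so that LSK cells left from the recipient were not told apart from donor cells. Values are normalized counts, which are read pairs per gene divided by 1 size factor per library.

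Depth was 33143619 to 42742329 read pairs on genes in wild-type libraries, and 37140168 to 45140743 in libraries labelled PROSER1 KO. A count of 0 allows up to 3 read pairs, which is 2.54 to 3.48 normalized counts depending on the library, and this limit covers counting error only. Proser1 mRNA was not lower in the libraries labelled PROSER1 KO (2464, 2359 and 2338) than in the wild-type libraries (2019, 2153, 2103 and 2077), so every direction below rests on the labels. All 4 genes of the LSK gate (Kit, Ly6a, Ly6e and Cd34) were expressed in every library, with a sum of 95334 to 103185 in wild-type and 92892 to 96053 in PROSER1 KO. Genes of plasma cells, which the gate should leave out, summed to 172205 to 432130 and 201084 to 300831. Of 12 marker lists for cell types that the sort could hold, none had a gene that passed the test, beside 0.258% of all genes. The summed levels of each list overlapped between the groups, but a sum can hide single genes. Of the long-term HSC list, Mecom was lower in PROSER1 KO (2160 to 2610) than in wild-type (2683 to 3030). Mllt3 (2206 to 2313 against 1772 to 2197) and Fgd5 (968 to 1068 against 817 to 957) were higher. So was Hoxb5 (159 to 166 against 114 to 138). The other genes of that list overlapped. In other lists, Csf1r and Cpa3 were higher and Cd4 and Mcpt8 lower without overlap, beside 10% of all genes. Of the T and innate lymphoid list, PROSER1 KO replicate 1 had 697 for Cd3g, 197 for Cd3e, 106 for Cd3d and 1126 for Il2ra. The highest wild-type values were 52.9, 24.0, 19.2 and 541. PROSER1 KO replicates 2 and 3 had 24.5 and 38.4 for Cd3g. Cd4, Gata3 and Rora were not highest in PROSER1 KO replicate 1. The part of T cells, B-lineage cells and HSCs in the levels below was not tested. Fewer cells of a type and less RNA per cell cannot be told apart in these bulk samples.

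A bHLH-PAS transcription factor binds DNA as a pair. A regulated subunit (an HIF alpha protein stabilized at low oxygen, AHR after ligand binding, or CLOCK or NPAS2 in the circadian oscillator) joins a general partner, which is ARNT or ARNT2 for the first groups and BMAL1, encoded by Arntl, for the clock. HIF pairs recognize cores that include ACGTG, AHR pairs the core GCGTG, and CLOCK pairs the E-box CACGTG. HSCs reside in BM niches of low oxygen, whereas ARNT2 and its partner SIM1 are best known from neurons of the hypothalamus.

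The sequences upstream of both general partners are shown because these genes encode closely related proteins and their transcript levels differed widely in LSK cells. They end at the base before the annotated start of the gene (RefSeq promoters, GRCm38.p6), run 5′ to 3′ on the strand of the gene, and have the core GCGTG in capitals.

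Arnt2, chr7:84410177-84410288, reverse strand: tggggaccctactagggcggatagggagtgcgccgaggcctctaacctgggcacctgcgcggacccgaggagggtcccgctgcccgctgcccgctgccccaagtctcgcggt

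Arnt, chr3:95434140-95434387, forward strand: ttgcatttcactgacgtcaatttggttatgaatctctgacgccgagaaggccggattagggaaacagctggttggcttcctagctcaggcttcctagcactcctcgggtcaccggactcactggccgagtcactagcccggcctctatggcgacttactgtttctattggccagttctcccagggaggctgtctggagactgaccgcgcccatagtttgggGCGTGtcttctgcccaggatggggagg

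The 112 bases of Arnt2 held 11 CpG dinucleotides and 72.3% G or C, and the 248 bases of Arnt held 12 CpG and 56.9% G or C. The core GCGTG, searched on both strands, occurred once upstream of Arnt and not in the window of Arnt2, and neither window held ACGTG or CACGTG. These letters are common in promoters of 250 bases upstream and 50 downstream of a start, where GCGTG occurred in 28.2% of 32851, ACGTG in 16.6% and CACGTG, which contains ACGTG, in 6.02%. DNA methylation of these windows was not analysed here.

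Arnt2 levels were lower in all 3 libraries labelled PROSER1 KO than in all 4 wild-type libraries. The gene (ENSMUSG00000015709) lies on the reverse strand of chromosome 7 from 84246278 to 84410176 (GRCm38). Wild-type replicates 1 to 4 had normalized counts of 136, 124, 123 and 125, whereas PROSER1 KO replicates 1 to 3 had 57.4, 23.7 and 38.4. The wild-type libraries were close to each other, the libraries labelled PROSER1 KO were spread, and the groups did not overlap. Mean levels were 127 ± 5.92 (SD, n = 4) in wild-type against 39.8 ± 16.9 (SD, n = 3) in PROSER1 KO, with coefficients of variation of 4.67% and 42.4%. The wild-type mean was 3.18 times the PROSER1 KO mean, and the lowest wild-type library was 2.14 times the highest PROSER1 KO library. The log2 difference was -1.73 on the log2(normalized count + 1) scale.

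These levels rest on few reads. Wild-type replicates 1 to 4 held 141, 137, 107 and 108 read pairs of Arnt2, and PROSER1 KO replicates 1 to 3 held 55, 28 and 40. Exact 95% Poisson intervals, which cover counting error only, did not reach below 100.8 normalized counts in any wild-type library or above 74.7 in any PROSER1 KO library. Within PROSER1 KO, the interval of replicate 2 (15.7 to 34.2) lay below that of replicate 1 (43.2 to 74.7). Without PROSER1 KO replicate 1, the highest of its group, the log2 difference of Arnt2 was -2.03, and without PROSER1 KO replicate 2, the lowest, it was -1.41. Of the 2 annotated genes inside Arnt2, the small nuclear RNA Gm25790 had no read pair in any library, and the antisense Gm30873 had none except 3.45 normalized counts in wild-type replicate 3. Strand use in the counting is not given in the sources used here, and the part of antisense reads in the Arnt2 counts was not tested.

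**Figure D1:**
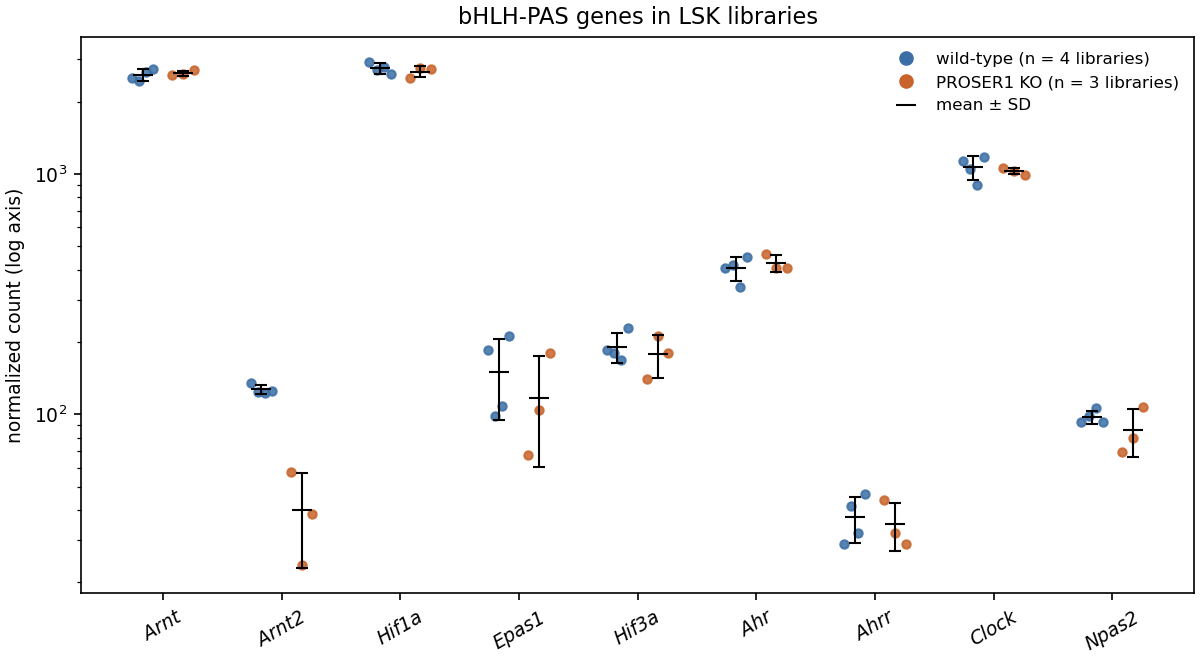
Normalized counts (log axis) of the 9 detected members, with the 4 wild-type and the 3 PROSER1 KO libraries as points and a horizontal line for each group mean with its SD. Arnt2 was the member whose groups did not overlap (123 to 136 against 23.7 to 57.4), and Sim1, at 0 in all 7 libraries, is not drawn.

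Arnt, which encodes the general partner of the HIF alpha proteins and of AHR, lies on chromosome 3 from 95434388 to 95497240, 41.95 Mb beyond the end of Proser1. Library values were 2517, 2433, 2654 and 2744 across the wild-type libraries, against 2588, 2599.5 and 2699.7 with PROSER1 KO. Every PROSER1 KO library lay inside the wild-type range. The log2 difference was 0.02 (standard error 0.055, adjusted p = 0.929 by limma), and its 95% interval corresponds to folds of 0.934 to 1.11.

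Per kb of exon, the share of Arnt2 in the sum of Arnt and Arnt2 was 5.31%, 5.02%, 4.6% and 4.54% across wild-type replicates 1 to 4, against 2.26%, 0.940% and 1.46% with PROSER1 KO. Arnt thus supplied nearly all of this sum in both groups. The means of the Arnt2 share were 4.87 ± 0.365% (SD, n = 4) and 1.55 ± 0.663% (SD, n = 3), and with the longest transcript of each gene as its length they were 3.30% and 1.04%. With Arntl and Arntl2, which encode the partners in the clock, added to the sum, wild-type shares were 74.2% for Arnt, 21.5% for Arntl, 3.8% for Arnt2 and 0.526% for Arntl2, and PROSER1 KO shares were 78.3%, 20.2%, 1.24% and 0.238%.

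**Figure D2:**
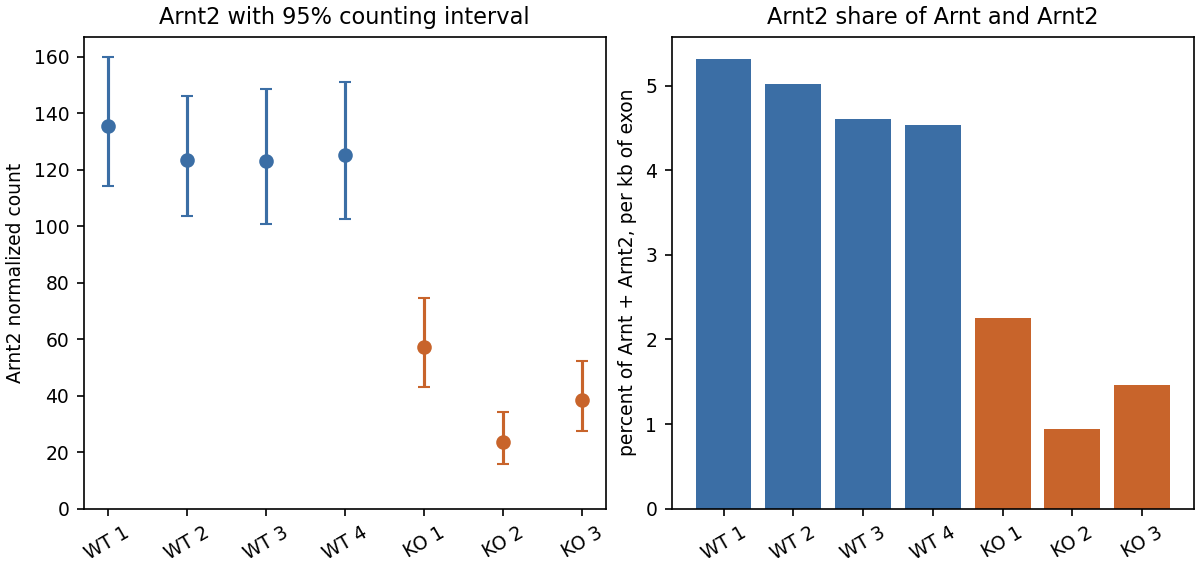
Arnt2 in every library as a normalized count with its exact 95% Poisson interval (points, left) and as a percentage of Arnt plus Arnt2 per kb of exon (bars, right). The share was 4.54% to 5.31% in wild-type and 0.940% to 2.26% in PROSER1 KO.

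None of the 8 other members with enough reads passed the test. Of the 9 members whose mean level reached 10 normalized counts, Arnt2 alone met the threshold used for all genes (adjusted p below 0.05 with a fold change over 1.5), beside 0.258% of the 16251 genes tested, and since its difference chose the family, that 1 call is no test of it. The call was absent with edgeR and present with DESeq2. Among the other 8, limma, edgeR (0.246% of all genes) and DESeq2 (0.873% of 18903 genes) called 0, and 0 had an unadjusted p under 0.05 by limma (9.73% of all genes). The groups did not overlap in 0 of the 8, beside 10% of all genes. Their log2 differences lay between -0.39 and 0.07, with 6 below 0 and 2 above and a median of -0.07 (all genes 0.00), and the lowest adjusted p by limma was 0.776.

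**Figure D3:**
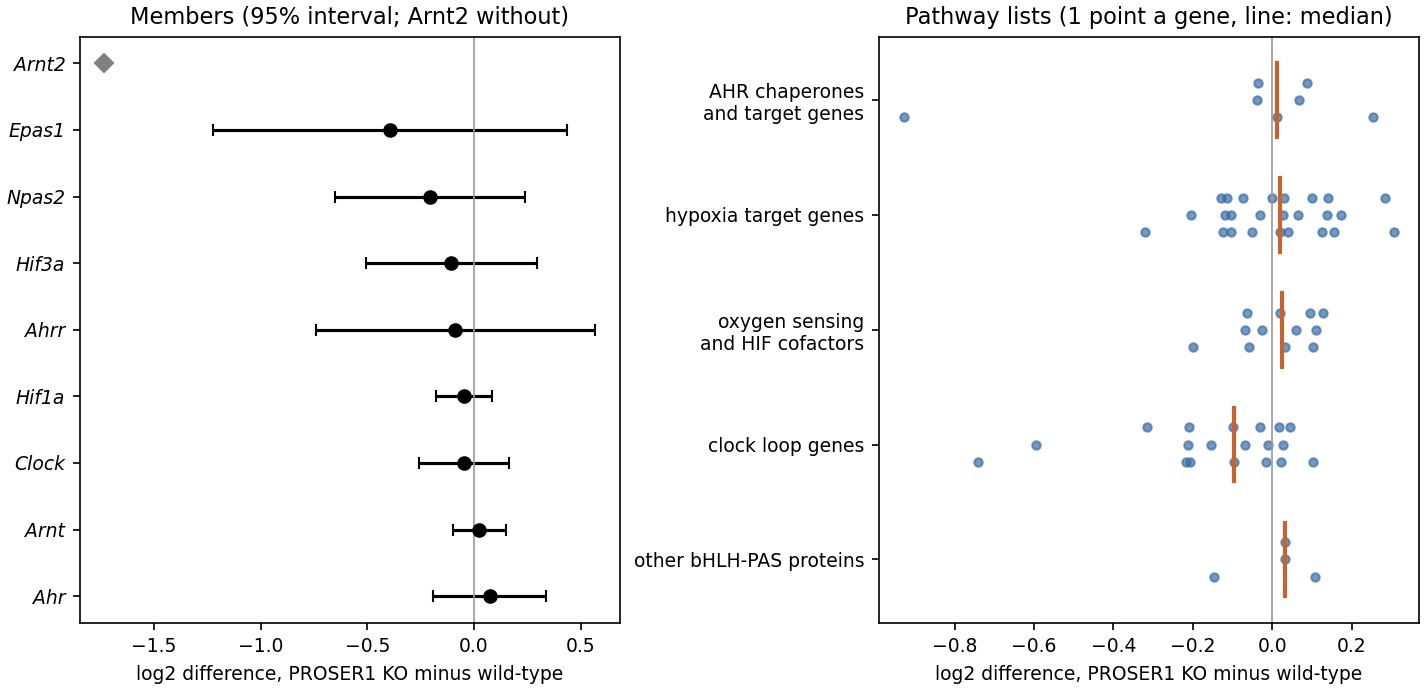
Log2 difference (PROSER1 KO minus wild-type, on log2(normalized count + 1)) of the members other than Arnt2 with its 95% interval from limma, and of Arnt2 as a point without an interval (left), and of the tested genes of the 5 pathway lists described further on, 1 point a gene with the list's median as a line (right). The 8 tested members have intervals that include 0, and that of Epas1 is the widest of them (-1.22 to 0.43), while the list medians lie between -0.10 and 0.03.

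Among the oxygen-regulated subunits, Hif1a, which encodes the HIF alpha protein expressed in most cells, was the most abundant (ENSMUSG00000021109, chromosome 12 from 73901375 to 73947530). Normalized counts were 2924, 2703, 2794 and 2603 across the wild-type libraries, against 2505, 2765 and 2726 with PROSER1 KO. PROSER1 KO replicate 1 was the lowest library and the other libraries were mixed. Hif1a had a log2 difference of -0.05 (standard error 0.058, adjusted p = 0.844 by limma), with a 95% interval from -0.18 to 0.08.

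Epas1, which encodes HIF2 alpha and is known from endothelial cells, lies on chromosome 17 from 86753700 to 86833410. It had normalized counts of 185, 98.3, 108 and 211 across the wild-type libraries, against 67.8, 104 and 179.5 with PROSER1 KO. Libraries within each group differed more than the groups did, with coefficients of variation of 37.1% and 48.7%. Epas1 differed by -0.39 on the log2 scale (standard error 0.37, adjusted p = 0.776 by limma). It ranged from -0.76 without PROSER1 KO replicate 3 to -0.06 without PROSER1 KO replicate 1, so that a change of Epas1 could not be resolved with these libraries.

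The endothelial genes Cdh5 (VE-cadherin) and Kdr (the VEGF receptor) were looked at beside Epas1 after its values had been seen. Cdh5 had 162, 33.4, 136 and 231 across the wild-type libraries, against 106, 182 and 258 with PROSER1 KO. Kdr had 191, 96.5, 154 and 265 and then 146, 233.5 and 392. Both were lowest in wild-type replicate 2 and highest in wild-type replicate 4 within their group, as Epas1 was, and within PROSER1 KO all 3 genes were lowest in replicate 1 and highest in replicate 3. They were picked from a list of 7 stromal and endothelial markers, and none of the other 5 shared all of this order, although Lepr did so in wild-type and Kitl in PROSER1 KO. Pecam1, also an endothelial gene, ran the other way within PROSER1 KO (5523, 4935 and 4649.7), and Col1a1 was highest in PROSER1 KO replicate 1 (59.5) and lowest in replicate 2 (19.5). Pearson correlations with Epas1 on the log2 scale over the 7 libraries, given as a description, were 0.66 for Kdr, 0.59 for Cdh5, 0.36 for Lepr, 0.28 for Kitl, 0.22 for Cxcl12, 0.01 for Col1a1 and -0.39 for Pecam1. Over the list, 0 were called, beside 0.258% of all genes, and none was at 0. The sum, most of which was Pecam1, was 5063 to 5946 in wild-type and 5453 to 5977 in PROSER1 KO. The part of endothelial cells in the Epas1 levels was not tested.

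**Figure D4:**
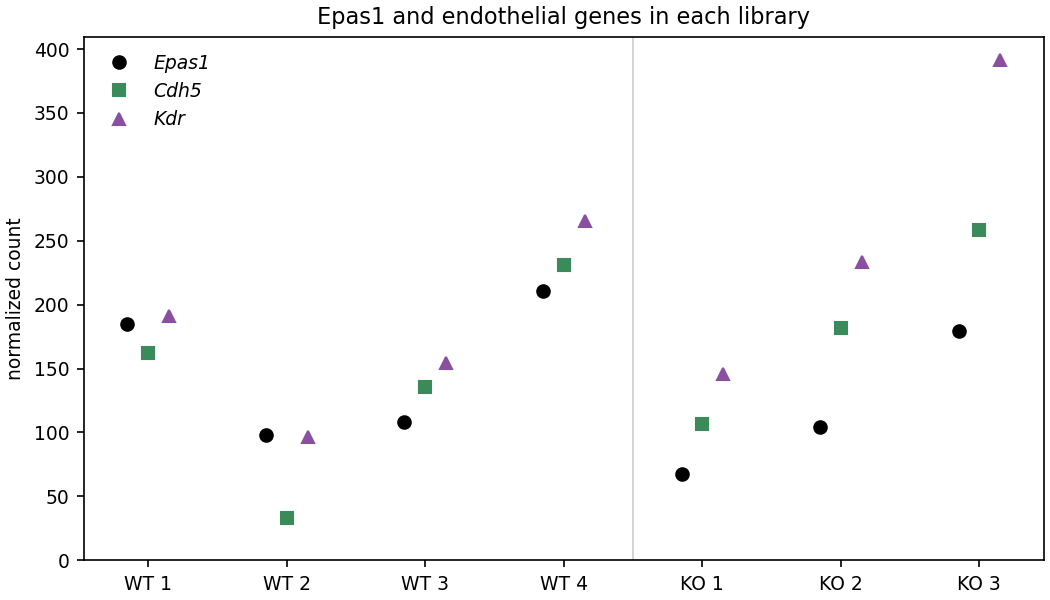
Normalized counts of Epas1, Cdh5 and Kdr in each of the 7 libraries. Within PROSER1 KO the 3 genes are lowest in replicate 1 and highest in replicate 3, and Epas1 spans 67.8 to 211 over all libraries.

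Hif3a, whose product can restrain the other HIF alpha proteins, lies on chromosome 7 from 17031507 to 17062427. Library values were 185, 179, 168 and 229.5 across the wild-type libraries, against 141, 212 and 180.5 with PROSER1 KO. The groups overlapped, with a log2 difference of -0.11 (standard error 0.18, adjusted p = 0.899 by limma). Per kb of exon, Hif1a made up 89.4% of the 3 HIF alpha genes in wild-type and 90.6% in PROSER1 KO, Hif3a 5.44% and 5.28%, and Epas1 5.13% and 4.13%.

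Ahr encodes the receptor for dioxins and for tryptophan and dietary ligands, and lies on chromosome 12 from 35497974 to 35535038. Library values were 407, 420.1, 340.2 and 453 across the wild-type libraries, against 464, 406 and 405 with PROSER1 KO, with a log2 difference of 0.07 (standard error 0.12, adjusted p = 0.890 by limma). PROSER1 KO replicate 1 was the highest library and wild-type replicate 3 the lowest.

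Ahrr, the repressor that competes with AHR for ARNT, lies on chromosome 13 from 74211118 to 74292331 and had 28.8, 41.5, 32.2 and 46.4 across the wild-type libraries, against 43.8, 32.2 and 28.8 with PROSER1 KO. Both groups covered nearly the same range. The log2 difference was -0.09, and its 95% interval from -0.74 to 0.57 leaves room for a change of over 1.5-fold in the direction of lower levels. Ahr made up 94.4% of Ahr plus Ahrr per kb in wild-type and 94.9% in PROSER1 KO.

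Clock and its paralog Npas2 encode the subunits that pair with BMAL1. Clock lies on chromosome 5 from 76209868 to 76304792 and had 1138, 1052, 899 and 1177 normalized counts across the wild-type libraries, against 1056, 1028 and 995 with PROSER1 KO. Every PROSER1 KO library lay inside the wild-type range, and the log2 difference was -0.05 (standard error 0.094, adjusted p = 0.916 by limma).

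Npas2 lies on chromosome 1 from 39193731 to 39363236 and had 93.3, 98.3, 106 and 92.7 across the wild-type libraries, against 69.9, 79.5 and 108 with PROSER1 KO. The first 2 PROSER1 KO replicates lay below all wild-type libraries and the third lay above them. Npas2 differed by -0.21 on the log2 scale (standard error 0.20, adjusted p = 0.784 by limma). Clock made up 79.1% of Clock plus Npas2 per kb in wild-type and 80.8% in PROSER1 KO.

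Sim1, which encodes the hypothalamic partner of ARNT2 and lies on chromosome 10 from 50894754 to 50989152, had 0 read pairs in all 7 libraries. It was therefore not tested, and levels up to 2.54 to 3.48 normalized counts were not detectable at this depth.

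Between genes, levels were compared as normalized counts per kb of exon over the 7 libraries. Hif1a was highest (425 to 496), followed by Arnt (304 to 343), Clock (65.5 to 85.7) and Ahr (55.2 to 75.3). Hif3a (21.0 to 34.2), Epas1 (12.1 to 37.7), Npas2 (14.6 to 22.4) and Arnt2 (3.08 to 17.6) came next, above Ahrr (3.05 to 4.91) and Sim1. The ranges of Clock and Ahr overlapped, as did those of Hif3a and Epas1 and of Epas1 and Npas2, over all libraries and within each group, so that the order of these pairs is not larger than the spread. The range of Arnt2 over all libraries spans both groups and meets those of Npas2 and Ahrr. Within groups, Arnt2 lay below Npas2 in wild-type (16.0 to 17.6 against 19.4 to 22.1) and in PROSER1 KO (3.08 to 7.46 against 14.6 to 22.4). It lay above Ahrr in wild-type (3.06 to 4.91) and overlapped with it in PROSER1 KO (3.05 to 4.64). With the longest transcript as the length, Arnt and Hif1a exchanged places.

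**Figure D5:**
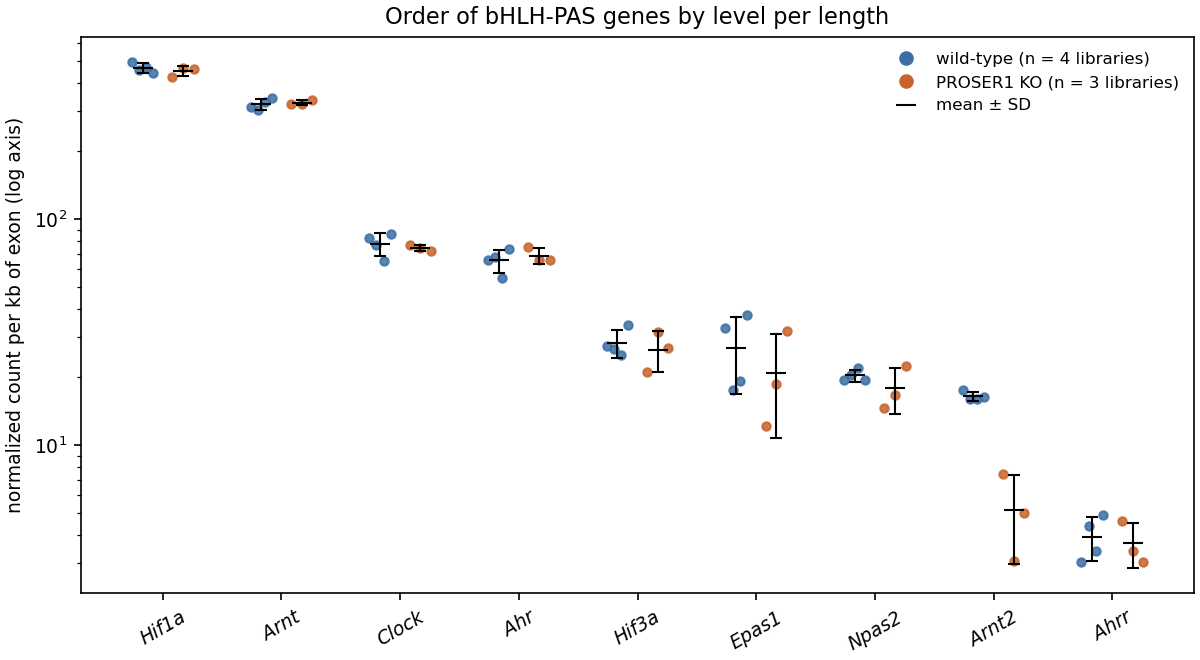
Normalized counts per kb of exon of the 9 detected members on a log axis, with wild-type and PROSER1 KO libraries as points and the group means with their SD as lines. Hif1a (425 to 496) and Arnt (304 to 343) stand above the other members, and Arnt2 spans 3.08 to 17.6.

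The genes around these factors were described with 5 lists of 78 genes in all, of which 67 were tested. Limma called 0 of them, beside 0.258% of all genes tested, so that 0 calls say little about lists of this size. The remaining family members come first. Of 9 other bHLH-PAS genes, 4 were tested (Arntl and the coactivator genes Ncoa1, Ncoa2 and Ncoa3), 0 were called, and 3 were higher and 1 lower, with a median log2 difference of 0.03. Arntl, which encodes the clock partner BMAL1, had means of 703 ± 37.8 (SD, n = 4) and 639.5 ± 90.6 (SD, n = 3), with an adjusted p of 0.697 by limma. Npas1, Npas3, Npas4, Sim2 and Arntl2 had means under 10.

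In the clock loop, all 19 genes were tested and 0 were called by limma, while 14 were lower and 5 higher, with a median log2 difference of -0.10. Unadjusted p-values were under 0.05 for 5 genes (26.3% of the list, beside 9.73% of all genes), and the groups did not overlap in 3 (15.8%, beside 10%). DESeq2 called 1 of the 19 (0.873% of all genes), and edgeR called 0 (0.246% of all genes). The hour at which the cells were collected is not given for either group in the sources used here. The part of the time of day in these levels was not tested.

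The repressor genes Per2 and Cry2, named after their values were seen, had groups that did not overlap. Per2 had 1100.1, 1219, 1231 and 1240.4 across the wild-type libraries, against 864, 955 and 1075 with PROSER1 KO, a log2 difference of -0.32 (adjusted p = 0.236 by limma). Cry2 had 1120.3, 1037, 1137 and 1142 and then 919, 949 and 1001, a log2 difference of -0.21 (adjusted p = 0.321 by limma). Bhlhe41, which encodes the repressor DEC2, had means of 590 ± 228 (SD, n = 4) and 371 ± 51.9 (SD, n = 3) with overlapping groups and an adjusted p of 0.512 by limma. Seen afterwards, Bhlhe41 ran in the order of the plasma cell sum within wild-type (640, 477, 359 and 885) and within PROSER1 KO (383, 315 and 417). Its log2 difference was -0.60, and -0.37 without wild-type replicate 4. The part of plasma cells in its levels was not tested. The abundant kinase genes Csnk1d and Csnk1e, whose products phosphorylate PER proteins, had log2 differences of 0.03 and -0.03.

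The E-box CACGTG, on which CLOCK and BMAL1 act, was searched in the RefSeq promoters of the clock loop. It occurred in 6 of 18 promoters (33.3%, beside 6.02% of all promoters). Outside exons, the motif occurred in promoters of Per1, Cry1, Ciart and Tef. Per1 and Cry1, which encode repressors of the loop, are shown as examples. The stretches run 5′ to 3′ on the strand of the gene with the E-box in capitals. That of Per1, in 1 of its 2 promoters, lies inside the annotated gene (69095217 to 69109960), and that of Cry1 lies upstream of its gene.

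Per1, chr11:69098768-69098803, forward strand: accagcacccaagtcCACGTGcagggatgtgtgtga

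Cry1, chr10:85185094-85185129, reverse strand: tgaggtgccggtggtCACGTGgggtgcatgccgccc

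Neither of these genes passed the test, with log2 differences of 0.02 for Per1 and -0.07 for Cry1 and limma adjusted p-values of 0.975 and 0.838. A match of letters does not show binding.

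The oxygen-sensing genes, which encode the prolyl hydroxylases (Egln), the VHL ubiquitin ligase and the HIF coactivators, were called in 0 of 12 cases, with 7 higher and 5 lower and a median log2 difference of 0.03. Egln3, itself a HIF target, was the 1 gene of this list whose groups did not overlap (8.33%, beside 10% of all genes). It had 1453, 1421, 1687 and 1466 across the wild-type libraries, against 1318, 1285 and 1324 with PROSER1 KO, a log2 difference of -0.20 with an adjusted p of 0.390 by limma. The log2 differences of the coactivator gene Ep300 and of Cited2, which encodes a protein that competes with HIF1 alpha for p300, were 0.13 and 0.02.

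Of 28 hypoxia target genes, 25 were tested, 0 were called, and 13 were higher and 12 lower with a median log2 difference of 0.02. The unadjusted p was under 0.05 for 3 (12.0%, beside 9.73%), and the groups did not overlap in 4 (16.0%, beside 10%), which were Aldoa and, named after their values were seen, Slc16a3, Bnip3l and Kdm3a. Aldoa, a glycolytic enzyme gene, had means of 13406 ± 115 (SD, n = 4) and 12306 ± 83.6 (SD, n = 3), a log2 difference of -0.12 (adjusted p = 0.309 by limma). The lactate exporter gene Slc16a3, the mitophagy gene Bnip3l and the histone demethylase gene Kdm3a had differences of the opposite sign, 0.28, 0.14 and 0.16. Vegfa, which encodes the endothelial growth factor, had means of 852 ± 182 (SD, n = 4) and 674 ± 83.5 (SD, n = 3) and a log2 difference of -0.32 (adjusted p = 0.548 by limma). Seen afterwards, Vegfa ran in the order of the plasma cell sum within wild-type but not within PROSER1 KO. Without wild-type replicate 4 it differed by -0.20, and the part of plasma cells was not tested. Ldha differed by 0.04 and the low gene P4ha2 by 0.31. The erythropoietin gene Epo was at 0 in all libraries. The core ACGTG was found in 18 of 35 promoters of the list (51.4%, beside 16.6% of all promoters). This was not particular to the list, since ACGTG occurred in 55.6% of the 18 clock loop promoters and 36.4% of the 11 oxygen-sensing promoters. GCGTG was likewise more frequent in the hypoxia target promoters (54.3%) than in all promoters (28.2%).

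Of 10 genes for AHR chaperones and AHR targets, 7 were tested, 0 were called, and 4 were higher and 3 lower with a median log2 difference of 0.01. Of the AHR targets, Cyp1a1, Cyp1a2 and Cyp1b1 had means under 10, and Cyp1a2 was at 0 in all libraries. The target Tiparp, named after its values were seen, had means of 897 ± 88.2 (SD, n = 4) and 952 ± 80.8 (SD, n = 3). Its log2 difference was 0.09 (adjusted p = 0.807 by limma). Nqo1, a quinone reductase gene, differed by 0.25 and the low gene Aldh3a1 by -0.93, with limma adjusted p-values of 0.621 and 0.697. The chaperone genes Hsp90aa1 and Hsp90ab1 differed by 0.07 and 0.01.

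The 5 tested genes whose pattern over the 7 libraries was nearest to Arnt2, by the root mean square difference of log2 values centered on each gene's mean, were Foxs1 (0.222), Gm26782 (0.252), Iglon5 (0.255), Slc16a11 (0.270) and Gm16867 (0.272). As Arnt2 differs between the groups, nearness to it selects genes that differ likewise, and no test was made. Gm26782 had 371 to 416 normalized counts in wild-type and 111 to 164 in PROSER1 KO, and Slc16a11, which encodes a protein of the monocarboxylate transporter family, had 714 to 938 and 234 to 350.4. Foxs1, a forkhead factor gene (12.6 to 16.1 and 1.69 to 8.35), and Iglon5, a neuronal adhesion molecule gene (13.8 to 26.7 and 2.54 to 8.35), were close to the limit of detection in PROSER1 KO. Like Arnt2, Foxs1, Iglon5 and Gm26782 were highest in replicate 1 among the libraries labelled PROSER1 KO.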

How the data were processed

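LSK cell RNA was sequenced in 7 libraries, 4 wild-type and 3 PROSER1 KO by their labels. The kit for the libraries keeps strand. The authors used Trimmomatic for trimming, STAR for mapping to mm10 and featureCounts for counting, and deposited a signal per gene, the counts divided by 1 DESeq2 size factor per library. Read pairs were recovered from the step of each library (100% whole within 0.01), and no column of other samples was present. The table was not filtered for low counts, and 685 rows lacked a symbol. Libraries within groups differed by more than sampling noise.

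Group differences were fitted in R 4.3.3 by limma 3.58.1 (lmFit, eBayes with trend) to log2(normalized count + 1). Genes needed a mean of 10 or more, which left 16251. A gene was called when its p, adjusted by Benjamini-Hochberg over all genes tested, was below 0.05 and its fold change exceeded 1.5. Standard errors and intervals are those of limma. This scale understates the fold of low genes. The procedures were tested on simulated data. There, limma called 34% of genes with a true fold of 1.5, 63.8% at a fold of 2 and 85.1% at 4. A gene that was not called may therefore still differ. Alternatives were pseudocounts of 0.1 and 10, no filter, a minimum mean of 50, eBayes without trend, TMM factors, edgeR 4.0.16 (quasi-likelihood) and DESeq2 1.42.0 on recovered read pairs, no fold change minimum, a block for the replicate number, omission of each library, and the longest transcript as gene length.

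Positions and exon lengths come from GENCODE M21 (GRCm38), which held 48058 of the 48440 identifiers. The methods and the file name other GENCODE releases. RefSeq promoters were found for 8 of the 10 members, and not for Ahr and Epas1. The members and gene lists were chosen with earlier results of these data known. Named genes are all members, Proser1, genes overlapping Arnt2, the 5 genes most like Arnt2, and of each list the called genes, the 2 tested genes with the largest log2 difference and the 2 with the highest mean. Other genes are named as seen, and 1 gene of the clock loop list is not reported here.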

Additional observations from a re-analysis of the deposited data

How the results depend on the processing

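The log2 difference of Arnt2 lay between -2.03 and -1.41 under every setting. The number of members called, which is the call of Arnt2 alone and no test of it, was 1 and became 0 without a filter on low values, with a minimum mean of 50, without the trend, with edgeR and with the replicate block. It was 0 to 1 with 1 library left out, and stayed 1 only without PROSER1 KO replicate 1. With DESeq2, 1 clock loop gene was called, and 165 of 18903 genes in place of 42. Other counts over all genes were 32 with a minimum mean of 50, 17 without the trend, and 23 to 42 with 1 library left out (28 without wild-type replicate 1, 23 without PROSER1 KO replicate 2). The wild-type share of Arnt2 was 3.30% with the longest transcript.

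Replicate numbers did not pair the libraries: the correlations of deviations from the group means at the same number were 0.02, 0.06 and -0.11, and not every library was nearest to its own number. With the replicate block, which leaves wild-type replicate 4 without a partner, 35 genes were called and the log2 differences of Ahrr (0.025), Clock (0.0017), Cited2 (-0.0029), P4ha2 (-0.0051), Ldha (-0.016) and Hsp90ab1 (-0.025) changed sign. With 1 library left out, signs changed for Arnt (-0.0045 to 0.053), Ahr (-0.0066 to 0.13), Ahrr (-0.26 to 0.037), Hif3a (-0.24 to 0.051), Clock (-0.13 to 0.0017), Ncoa2 (-0.039 to 0.084), Cited2 (-0.014 to 0.051), P4ha2 (-0.14 to 0.79), Ldha (-0.038 to 0.085) and Hsp90ab1 (-0.025 to 0.046), none of which was called. The cause was not tested.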
